A study of Mus musculus with 36 samples.

Results

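The comparison set libraries labelled aNSC, activated neural stem cells, against libraries labelled qNSC, quiescent neural stem cells, both sorted from the adult mouse brain. Its members are the 16422 genes, of 19909 in the deposited table, that reached a log2 value of 0 in 3 or more of the 4 libraries of either group, and every difference is aNSC minus qNSC. Both groups came from C57BL/6 mice aged 8 weeks, carried no transgene or treatment that the labels name, and were isolated by FACS from homogenates of the subependymal zone, the niche of stem cells beside the lateral ventricles. The labels speak of biological replicates without tying each to an animal, so the p-values rest on variation among samples that may be partly technical. The antigens and gates of the sort are not given in the labels.

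Stem cells of this niche are astrocyte-like cells that spend most of their life out of the cell cycle. On activation they enter the cycle, raise the receptor for epidermal growth factor and give rise to dividing progenitors and then neuroblasts that migrate to the olfactory bulb. Notch and BMP signals are known to hold them quiescent, whereas EGF drives their division. Quiescent cells are known for glial transport, fatty acid breakdown and lysosomes, and activated cells for protein synthesis and DNA replication.

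The qNSC libraries were less alike than the aNSC libraries. Each library has a lowest value, its floor, which all its undetected genes share. The floor held 1159 to 3932 genes in qNSC and 780 to 1183 in aNSC, and the mean correlation of a library with the others of its group (across genes, which are not replicates) was 0.865 to 0.926 in qNSC and 0.966 to 0.973 in aNSC. On principal components of the 8 libraries, the first held 75.1% of the variance and separated the labels, and the second held 12.6% and set qNSC replicate 1, the library with the highest floor (-2.18), apart from the other 7. Without that library 10736 members were called changed, against 10843 with it, and 10115 calls were shared by both fits. In bulk libraries fewer cells carrying a transcript and less of it per cell cannot be told apart.

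Promoters of replication and mitosis genes are shown first, because all but 1 of the genes on these lists were higher in aNSC. E2F factors, which the retinoblastoma pocket proteins hold inactive outside the cycle, bind short GC-rich elements in promoters of S phase genes. Many late cell cycle genes carry a CHR element, through which the MuvB complexes act. The elements were searched on both strands in the RefSeq windows (GRCm38.p6) from 250 bases before to 50 after each gene's start, as TTTCCCGC, TTTGGCGC, TTTCGCGC or TTTGCCGC for E2F and TTTGAA for CHR. No spelling of E2F overlaps that of CHR. An E2F spelling was found in 16 of 46 matched replication genes (34.8%) and 5 of 47 matched mitosis genes (10.6%), against 4.03% of the 11015 matched members and 2.32% of all 27025 promoters. TTTGAA was found in 32 of 47 mitosis promoters (68.1%), 6 of 46 replication promoters (13%), 11.6% of members' promoters and 18.1% of all. CCAAT, the element of the factor NF-Y, was in 34 of 47 mitosis promoters (72.3%), 26 of 46 replication promoters (56.5%), 39.0% of members' promoters and 37.9% of all. A match describes letters and was not tested as a binding site. Below are the 250 bases before the start, 5′ to 3′, of the replication and the mitosis genes with the smallest adjusted p whose upstream bases hold E2F (Mcm5, Mcm6) or CHR (Cdk1, Ncapg). Capitals mark every E2F and CHR spelling on either strand.
Mcm5, chr8:75109259-75109508, plus strand: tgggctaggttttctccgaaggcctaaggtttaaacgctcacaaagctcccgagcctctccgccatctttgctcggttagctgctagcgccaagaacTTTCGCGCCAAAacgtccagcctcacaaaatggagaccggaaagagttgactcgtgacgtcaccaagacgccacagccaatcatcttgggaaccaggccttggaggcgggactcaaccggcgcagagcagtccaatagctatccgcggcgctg
Mcm6, chr1:128359706-128359955, minus strand: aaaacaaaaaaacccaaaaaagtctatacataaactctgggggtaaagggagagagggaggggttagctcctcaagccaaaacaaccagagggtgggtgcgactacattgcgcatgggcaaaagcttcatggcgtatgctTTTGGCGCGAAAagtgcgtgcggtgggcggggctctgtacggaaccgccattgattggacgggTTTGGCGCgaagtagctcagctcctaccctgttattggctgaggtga
Cdk1, chr10:69352913-69353162, minus strand: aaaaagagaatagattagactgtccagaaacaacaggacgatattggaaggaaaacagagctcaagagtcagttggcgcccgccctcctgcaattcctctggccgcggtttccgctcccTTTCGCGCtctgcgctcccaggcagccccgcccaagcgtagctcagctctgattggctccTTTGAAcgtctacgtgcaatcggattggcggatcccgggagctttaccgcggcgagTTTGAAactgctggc
Ncapg, chr5:45669675-45669924, plus strand: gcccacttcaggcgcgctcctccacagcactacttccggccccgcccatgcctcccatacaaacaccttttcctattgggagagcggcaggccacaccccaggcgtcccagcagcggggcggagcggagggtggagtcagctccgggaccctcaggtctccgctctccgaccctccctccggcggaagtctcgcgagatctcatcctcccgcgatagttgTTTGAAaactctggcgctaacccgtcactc
Mcm5 holds overlapping E2F spellings, TTTCGCGC from 153 bases before its start and, on the other strand, GCGCCAAA from 149 bases before. In Mcm6 TTTGGCGC begins 110 and 47 bases before the start, and the first overlaps GCGCGAAA, an E2F spelling on the other strand, from 106 bases before. Cdk1 holds both elements, with E2F from 131 bases and CHR from 71 and 15 bases before the start. In Ncapg CHR begins 30 bases before the start. Mcm5 and Mcm6 encode subunits of the replicative helicase, Cdk1 the kinase that drives mitosis, and Ncapg a condensin subunit.

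Transcripts of most members differed between the labels, in both directions. With limma (adjusted p under 0.05 over the 17788 genes tested in the 8 sorted populations), 10843 members were called, 66.0% of 16422. Higher in aNSC were 6112 (37.2% of members) and lower 4731 (28.8%), with a median change over all members of 0.19 (log2). The count of every list below is to be read beside these shares. In 10129 members (61.7%) no aNSC library overlapped a qNSC library. Changes over 2-fold numbered 4268 higher and 3557 lower. The balance turned at large sizes, with 893 higher and 1179 lower past a log2 change of 3, and 145 higher and 363 lower past 5. These counts include genes with a library at its floor, and floors lay at -4.73 to -2.18 in qNSC and -4.97 to -4.71 in aNSC. The part of the floors in this balance was not tested. Members that reached the value minimum only in aNSC numbered 1314 and only in qNSC 1147, and such genes had to be higher in that group. These gave 911 of the higher and 823 of the lower calls. Named genes of this kind include Dll3, E2f8, Cdkn1c, Dll4, Jag2, Helt, Hhip, Spry1, Lpl and Fn1, through aNSC. Through qNSC they include Fam163a, Etnppl, Fam20a, Adora2b, Fam198a, Dlk1, Heyl, Bmp6, Nog, Sfrp5, Gjb2, Gjb6 and Fgf1. The filter fixed the direction of these genes, so their p-values are no support for it. Of 565 processed pseudogenes, whose reads may belong to their parent genes, 300 were called higher and 63 lower. Of 13106 protein-coding members, 4969 were higher and 3885 lower.

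**Figure D1:**
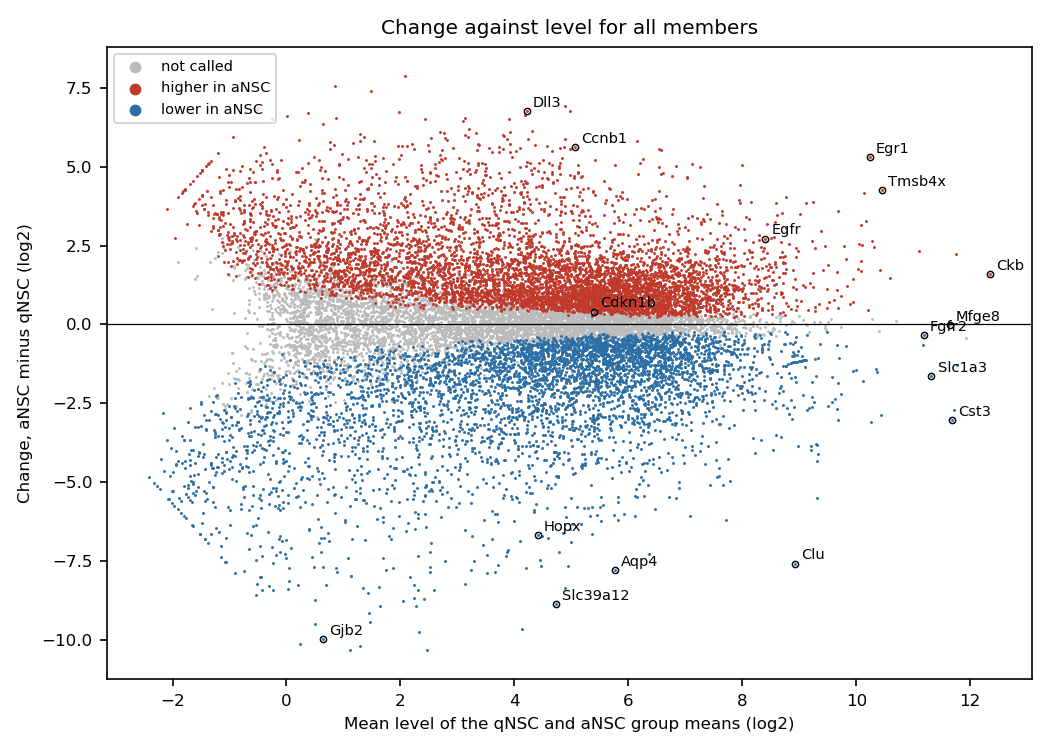
The vertical axis is the log2 change (aNSC minus qNSC) and the horizontal axis the mean of both group means (log2), with 1 point per member, coloured by its call, and named genes ringed. Clu and Aqp4 lie far below 0 at high levels, Egr1 and Tmsb4x far above it, and Mfge8 lies near 0.

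Among called members with no library at its floor, no overlap and an ordinary gene symbol, the largest increase was that of Dll3, which encodes a Notch ligand. Dll3 (ENSMUSG00000003436, chromosome 7, 28293553 to 28302238, GRCm38, as for all positions given) stood at -0.01, 2.81, -1.49 and 2.01 in qNSC replicates 1 to 4 and at 7.87, 7.49, 7.53 and 7.51 in aNSC. The qNSC values spread widely, and all lay far under the aNSC values. The rise was 109-fold (log2 change 6.77 ± 0.53 SE, limma adjusted p = 3.31e-11). Dll3, like E2f8 below, was a member only through aNSC, so the filter fixed its direction and its p-value is no support for it. Pbk, a mitotic kinase gene, rose 56.7-fold, Chaf1b, a chromatin assembly factor subunit, 50.4-fold, Ccnb1, cyclin B1, 49.1-fold, and E2f8, an atypical E2F repressor, 47.5-fold. The helicase gene Mcm5 rose 47-fold, the DNA topoisomerase Top2a 46.1-fold, the chromatin remodeller Hells 45.9-fold and the kinesin Kif18b 44.3-fold. Several of these values depended on 1 library. Without qNSC replicate 1 the log2 change of Pbk was 4.74 (against 5.83), that of Chaf1b 5.07 (5.66) and that of Top2a 4.93 (5.53). That of Dll3 was 7.43 without qNSC replicate 2 and 5.99 without qNSC replicate 3. With values under 0 set to 0, that of E2f8 was 4.96 (5.57).

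By the same criteria, the 10 largest decreases ran from 199-fold to 471-fold, so that genes with a library at its floor, such as Gjb2, Gjb6 and Fgf1, are not among them. Slc39a12 (ENSMUSG00000036949, chromosome 2, 14388316 to 14494977), a zinc transporter gene, measured 9.05, 9.21, 9.20 and 9.20 in qNSC and -1.23, 0.34, 0.88 and 1.15 in aNSC. Its qNSC libraries lay close together and its aNSC libraries near the limit of detection. The fall was 471-fold (log2 change -8.88 ± 0.91 SE, limma adjusted p = 4.32e-09). Fam163a was 405-fold lower, Etnppl, an enzyme of phosphoethanolamine breakdown, 341-fold, the chemokine Cxcl14 329-fold, Fam20a 232-fold and the adenosine receptor gene Adora2b 231-fold. The water channel gene Aqp4 was 223-fold lower, Cyp4f15 203-fold, the phosphatase inhibitor gene Ppp1r1b 201-fold and Fam198a 199-fold. Fam163a, Etnppl, Fam20a, Adora2b and Fam198a were members only through qNSC, so the filter fixed their direction. Where aNSC levels lie under 0, these folds depend on values near the floor. With values under 0 set to 0, the log2 change of Fam163a was -6.56 (against -8.66), that of Etnppl -6.79 (-8.42), that of Adora2b -6.44 (-7.85) and that of Fam198a -6.92 (-7.64). Leaving out 1 library gave -7.21 for Aqp4 without aNSC replicate 1 (against -7.80), -7.17 for Adora2b without aNSC replicate 4 and -6.87 for Fam198a without aNSC replicate 3.

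Surface antigens commonly used to sort these cells differed in both directions, and since the gates are not given, such differences may be set by the sort. Of 12 listed genes, which include the filament gene Gfap, whose product is not on the surface, 8 were members, 3 higher and 5 lower. Egfr, the EGF receptor gene (ENSMUSG00000020122, chromosome 11, 16752203 to 16918158), measured 7.02, 7.04, 7.05 and 7.02 in qNSC and 9.48, 9.88, 9.68 and 9.998 in aNSC, without overlap, and was 6.62-fold higher (log2 change 2.73 ± 0.20 SE, limma adjusted p = 6.5e-12). Cd24a, a neuroblast surface protein, was 4.73-fold higher and Prom1, which encodes prominin, 1.82-fold higher. The glutamate transporter gene Slc1a3 read 12.12, 12.30, 11.99 and 12.12 in qNSC and 9.87, 10.75, 10.58 and 10.81 in aNSC, a 3.09-fold fall (log2 change -1.63 ± 0.20 SE, limma adjusted p = 1.32e-07), yet it stayed among the most abundant transcripts of both groups. The adhesion molecule Vcam1 fell 8.01-fold, the integrin Itga6 3.88-fold, the tetraspanin Cd9 1.96-fold and the glial filament gene Gfap 31.2-fold.

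Genes of DNA replication rose as complete sets. All 26 genes for licensing and firing origins were higher (median log2 change 3.87), as were all 28 of the replication fork (3.83) and 30 of 31 of the DNA damage response and repair (3.03), against 37.2% of all members and their median of 0.19. Mcm5 (ENSMUSG00000005410, chromosome 8, 75109569 to 75128439) stood at 3.08, 4.22, 3.44 and 4.31 in qNSC and at 9.34, 9.35, 9.33 and 9.25 in aNSC, a gap far wider than either group's spread (log2 change 5.56 ± 0.27 SE, limma adjusted p = 6.77e-15). Mcm3 was 32.4-fold, Mcm6 21.3-fold and Mcm4 9.12-fold higher, each a further helicase subunit. The ribonucleotide reductase subunits Rrm2 and Rrm1, which make deoxynucleotides, were 33-fold and 15.6-fold higher, the polymerase alpha subunit Pola2 12.4-fold and the DNA ligase Lig1 16.1-fold. Of the checkpoint genes, Clspn rose 27.5-fold, Chek2 7.04-fold and Trp53, which encodes p53, 5.49-fold.

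Mitotic genes rose further. All 33 genes of mitotic entry and the spindle were higher, with a median of 4.84, and 23 of 24 genes of mitotic exit and cytokinesis, with a median of 4.40. Mki67 (ENSMUSG00000031004, chromosome 7, 135689784 to 135716361), transcribed in cycling cells, read 2.16, 2.51, 3.10 and 3.46 in qNSC and 7.93, 8.08, 8.00 and 8.09 in aNSC. The aNSC libraries lay close together and none came near a qNSC library, a 37.3-fold rise (log2 change 5.22 ± 0.32 SE, limma adjusted p = 3.36e-13). Ccnb1 (ENSMUSG00000041431, chromosome 13, 100778650 to 100786570) had 2.40, 2.102, 1.81 and 2.69 in qNSC and 7.87, 7.71, 8.03 and 7.87 in aNSC (log2 change 5.62 ± 0.18 SE, limma adjusted p = 3.92e-18). The spindle factor Tpx2 was 33.2-fold, the checkpoint kinase Bub1b 33.1-fold, cyclin A2, Ccna2, 26.1-fold, and the midbody genes Racgap1 and Prc1 31.8-fold and 27.5-fold higher. Cdk1 was 19.8-fold and Ncapg 16.6-fold higher. The kinesin Kif20a began from a higher qNSC level (5.08) and rose 6.39-fold. Pttg1, which encodes securin, the guard of sister chromatid cohesion, was the exception: it measured 7.29, 6.73, 7.17 and 6.93 in qNSC and 5.05, 5.36, 5.26 and 5.07 in aNSC, 3.6-fold lower (log2 change -1.85 ± 0.27 SE, limma adjusted p = 1.4e-06).

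Of 22 genes of G1 control, which decide entry into S phase, 17 were higher and 2 lower (median 3.56). Ccnd2, cyclin D2 (ENSMUSG00000000184, chromosome 6, 127125162 to 127152193), stood at 8.03, 8.22, 7.93 and 8.04 in qNSC and 12.12, 12.12, 12.55 and 12.12 in aNSC, so that it was already abundant in quiescent cells and rose 18.1-fold (log2 change 4.18 ± 0.25 SE, limma adjusted p = 1.6e-13). Ccnd1, cyclin D1, was 17.9-fold higher from a low level (1.39 to 5.55). The kinases Cdk2 and Cdk4 were 18.6-fold and 6.22-fold higher and the activator E2f2 26.8-fold. Rbl2, a pocket protein of quiescent cells, was 1.57-fold lower, and E2f5 was 1.36-fold lower (adjusted p = 0.0323), a call lost without qNSC replicate 1, aNSC replicate 1 or aNSC replicate 3, which leaves 1 lower gene in the list.

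Inhibitors of the cyclin-dependent kinases, which brake the cycle, were partly higher. Of 8 listed, 7 were members and 4 were called higher. None was called lower by limma, also at an unadjusted p under 0.05, but without qNSC replicate 1 Cdkn2b was (adjusted p = 0.027, against 0.583 with it). Cdkn1a, the p53 target that encodes p21 (ENSMUSG00000023067, chromosome 17, 29090976 to 29100727), read 0.47, 2.48, 1.56 and 3.03 in qNSC and 6.42, 5.99, 5.95 and 5.98 in aNSC, an 18.4-fold rise (log2 change 4.20 ± 0.36 SE, limma adjusted p = 1.72e-10). Cdkn1c, which encodes p57, was at -2.18, 2.17, -0.99 and 1.24 in qNSC, where replicate 1 is at its floor, and 4.72, 3.73, 4.03 and 3.91 in aNSC (log2 change 4.04 ± 0.54 SE, limma adjusted p = 3.36e-07). It was a member only through aNSC, so the filter fixed its direction. Cdkn2c was 7.82-fold and the phosphatase gene Cdkn3 13.6-fold higher. Cdkn1b, which encodes p27, measured 5.49, 5.21, 4.99 and 5.09 in qNSC and 5.51, 5.58, 5.64 and 5.69 in aNSC. Its libraries just failed to overlap, and the change of 0.41 ± 0.25 SE (95% interval -0.10 to 0.92) did not pass the test (adjusted p = 0.152), but did when only the 8 qNSC and aNSC libraries were fitted (adjusted p = 0.0227). Cdkn2d had a change of 0.00 (-0.32 to 0.33). The log2 change of Cdkn1c was 3.29 without qNSC replicate 1, 4.74 without qNSC replicate 2 and 3.24 with values under 0 set to 0.

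**Figure D2:**
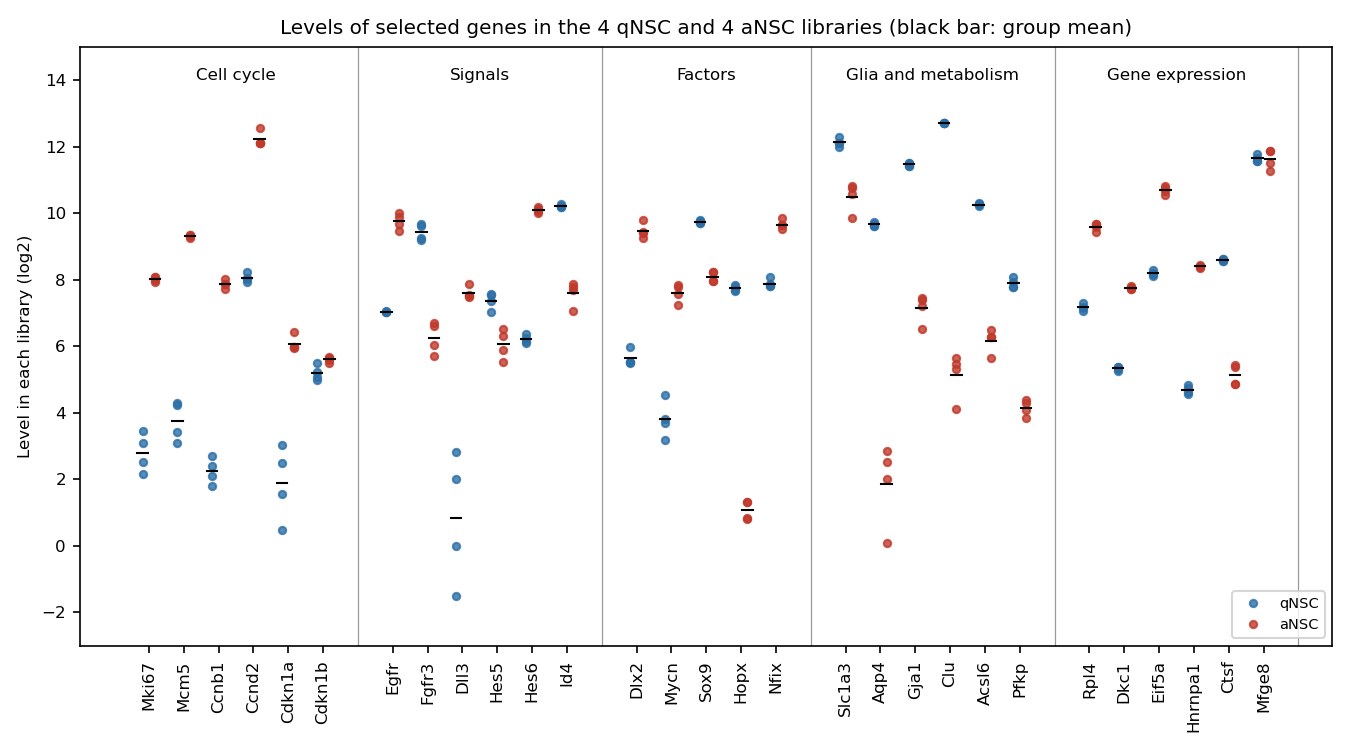
Each point is the log2 level of a gene in 1 library, qNSC in blue and aNSC in red, with black bars at the means of 4 libraries. The cell cycle genes Mki67, Mcm5 and Ccnb1 and the glial genes Aqp4, Gja1 and Clu separate widely in opposite directions, and Mfge8 overlaps.

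Within the Notch pathway most genes listed as targets fell, and most ligands were called higher, several with a direction that the filter fixed. Notch ligands on a cell activate receptors on its neighbours, and several Hes and Hey genes are the classical targets. Of 7 ligands 5 were higher and 1 lower. The filter fixed the direction of Dll3, Dll4 and Jag2 (through aNSC) and of Dlk1 (through qNSC). Of the called ligands only Dll1 and Jag1 could have gone either way. Dll1 was at -2.18, 3.43, 1.52 and 2.89 in qNSC, with replicate 1 at its floor, and at 8.23, 8.41, 8.28 and 8.51 in aNSC (log2 change 6.94 ± 0.65 SE, limma adjusted p = 7.73e-10). Dll4, at the floor in 2 qNSC libraries, stood at 5.12, 4.93, 5.35 and 5.34 in aNSC. Jag1 was 12.7-fold higher, and Jag2 passed the test at a low level (0.60 in aNSC) but not when values under 0 were set to 0 (adjusted p = 0.198). Dlk1, an atypical ligand, was 71.4-fold lower. Of 17 receptors and modifiers 4 were higher and 9 lower. The receptor Notch2 fell 6.02-fold and the glycosyltransferase Lfng 5.51-fold, whereas its relative Mfng stood at -2.18, 1.90, 1.93 and 2.58 in qNSC and 7.13, 6.63, 6.73 and 6.69 in aNSC. Rbpj, the DNA-binding partner of Notch, rose 2.86-fold. Without qNSC replicate 1 the log2 change of Dll1 was 5.75 and that of Jag1 2.92 (against 3.66), and without qNSC replicate 2 that of Dll1 was 7.61. With values under 0 set to 0, that of Dlk1 was -4.67 (against -6.16).

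Of 8 genes listed as Notch targets, mostly Hes and Hey repressors, 5 were lower and 2 higher. Hes5 (ENSMUSG00000048001, chromosome 4, 154960923 to 154962371) measured 7.03, 7.37, 7.54 and 7.56 in qNSC and 5.54, 5.89, 6.51 and 6.31 in aNSC, 2.48-fold lower (log2 change -1.31 ± 0.31 SE, limma adjusted p = 0.000764). Hey1 fell 5.26-fold, Heyl 18.3-fold and the feedback regulator Nrarp 2.7-fold. Hey2 was 2.96-fold lower (adjusted p = 0.0355), a call lost without any 1 library other than qNSC replicate 2. Hes1 read 5.13, 5.40, 5.35 and 5.57 in qNSC and 3.25, 3.62, 4.17 and 4.18 in aNSC without overlap, but its change of -1.56 ± 0.70 SE did not pass in the fit over 28 libraries (adjusted p = 0.0561), and did in the fit of the 8 libraries alone (adjusted p = 0.000165). The higher ones were Hes6, which opposes Hes1 and favours differentiation, and Helt. They were listed as members of the repressor family, and whether Notch induces them was not tested. Hes6 stood at 6.15, 6.10, 6.38 and 6.24 in qNSC and at 10.19, 9.998, 10.13 and 10.07 in aNSC, a 14.7-fold rise (log2 change 3.88 ± 0.15 SE, limma adjusted p = 7.85e-17). Helt was at the floor in 2 qNSC libraries and at 6.32, 5.79, 6.12 and 5.88 in aNSC. For Helt (through aNSC) and Heyl (through qNSC) the filter fixed the direction.

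BMP signalling acts through SMAD proteins and the Id genes, which block proneural factors. Of 5 member ligands and antagonists (10 listed) 2 were lower: Bmp6 48.8-fold and the antagonist Nog 33.6-fold. Both were members only through qNSC, so the filter fixed their direction, and the other 3 members were not called. Among 14 receptors, SMADs and Id targets 7 were lower and 4 higher. Id4 (ENSMUSG00000021379, chromosome 13, 48261228 to 48266026) read 10.19, 10.23, 10.18 and 10.26 in qNSC and 7.05, 7.68, 7.89 and 7.78 in aNSC, a 6.13-fold fall (log2 change -2.62 ± 0.13 SE, limma adjusted p = 5.65e-15), and kept a high level in both. Id3 fell 13.1-fold, Id2 9.67-fold and the receptor Bmpr1b 8.31-fold, whereas the common mediator Smad4 rose 2.12-fold. With values under 0 set to 0, the log2 change of Nog was -3.12 (against -5.07).

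In the EGF receptor and FGF pathways more genes fell than rose, while Egfr rose. Of 14 genes of the EGF receptor pathway 3 were higher (21.4%) and 6 lower (42.9%), beside 37.2% and 28.8% of all members. Besides Egfr the feedback inhibitor Errfi1 rose 2.16-fold, and the ligands Hbegf and Tgfa fell 12.7-fold and 11.1-fold and the receptor Erbb4 3.08-fold. Of 17 FGF pathway genes 2 were higher and 8 lower. Fgfr3 (ENSMUSG00000054252, chromosome 5, 33721674 to 33737068) measured 9.21, 9.68, 9.26 and 9.61 in qNSC and 5.71, 6.61, 6.03 and 6.70 in aNSC (log2 change -3.18 ± 0.28 SE, limma adjusted p = 3.11e-10), and Fgfr1 fell 6.07-fold. Fgfr2, by contrast, was abundant in all 8 libraries and fell only 1.27-fold (95% interval of the log2 change -0.50 to -0.18). The ligand Fgf1 averaged 6.77 in qNSC and was at the floor in 1 aNSC library, and the feedback gene Spry1, at the floor in 1 qNSC library, averaged 2.68 in aNSC. Fgf1 was a member only through qNSC and Spry1 only through aNSC, which fixed their directions.

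Wnt genes divided into 6 higher (27.3%) and 10 lower (45.5%) of 22, beside 37.2% and 28.8% of all members. The ligand Wnt7a fell 8.84-fold, the receptor Fzd2 8.95-fold and the secreted antagonists Sfrp5 and Dkk3 112-fold and 8.06-fold, whereas Ctnnb1, which encodes beta-catenin, stood at 6.37, 7.29, 7.02 and 7.11 in qNSC and 10.15, 10.31, 10.19 and 10.13 in aNSC (log2 change 3.25 ± 0.23 SE, limma adjusted p = 3.92e-12). Of 11 Hedgehog genes 6 were higher and 3 lower. The targets went apart, with Gli1 3.73-fold higher, Hhip at the floor in 2 qNSC libraries and averaging 2.17 in aNSC, and the receptor Ptch1 1.92-fold lower. Hhip was a member only through aNSC, so its direction was fixed. The repressor Gli3 fell 4.01-fold, the co-receptor Boc fell 2.81-fold, and the co-receptors Gas1 and Cdon rose 2.07-fold and 2.51-fold, the libraries of Cdon with overlap. Leaving out 1 library ended the calls of Gli1 (without qNSC replicate 1, aNSC replicate 2 or aNSC replicate 4, adjusted p 0.108, 0.0725 and 0.0684) and of Boc (without qNSC replicate 1, 0.0544). With values under 0 set to 0, the log2 change of Sfrp5 was -5.23 (against -6.80).

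Of 21 member factors that drive activation and neuronal commitment (24 listed), 12 rose and 2 fell (median 3.00). The homeobox genes Dlx1 and Dlx2 of the interneuron lineage rose 10.3-fold and 14.3-fold, and Mycn, a growth-promoting factor, 14-fold. The MYC antagonists Mxd4 and Mxi1 fell 2.4-fold and 2.36-fold. Of 26 neuroblast genes 13 were higher and 6 lower (median 0.85). Stmn1, a microtubule regulator, rose 11.1-fold and the RNA-binding protein gene Elavl4 10.8-fold, while Ncam1 and the guidance receptor Robo2 fell 4.58-fold and 5.88-fold.

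Factors that the literature links to quiescence did not move one way: 9 of 18 fell and 5 rose. Hopx (ENSMUSG00000059325, chromosome 5, 77086988 to 77115121) measured 7.86, 7.68, 7.80 and 7.68 in qNSC and 0.81, 1.31, 0.84 and 1.31 in aNSC, 103-fold lower (log2 change -6.69 ± 0.46 SE, limma adjusted p = 2.58e-12). Klf9 fell 6.94-fold and Foxo1 4.39-fold. Nfix, an NFI factor tied to stem cell quiescence, was higher in every aNSC library: it had 7.86, 7.80, 8.07 and 7.80 in qNSC and 9.85, 9.63, 9.51 and 9.65 in aNSC, a 3.42-fold rise (log2 change 1.78 ± 0.14 SE, limma adjusted p = 2.04e-11). Foxo6 rose 11.8-fold. Neural stem cell factors were even, with 6 higher and 6 lower of 17 (35.3% each), near the 37.2% and 28.8% of all members. Sox9, the glial determinant, fell 3.14-fold and Nkx6-2 9.49-fold, and Sox4 and Sox11, factors of newly formed neurons, rose 10.7-fold and 10.2-fold.

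Astroglial genes fell in nearly every case. All 19 genes for water, ion and transmitter transport were lower, with a median of -3.85, against 28.8% of all members. Aqp4 (ENSMUSG00000024411, chromosome 18, 15389496 to 15410982) stood at 9.73, 9.69, 9.63 and 9.62 in qNSC and at 0.09, 2.51, 2.01 and 2.86 in aNSC (log2 change -7.80 ± 0.62 SE, limma adjusted p = 4.83e-11). The bicarbonate cotransporter Slc4a4 fell 67.9-fold, the amino acid transporter Slc7a10 58.5-fold, the cystine transporter Slc7a11 14.4-fold and the glycine transporter Slc6a9 6.28-fold. Of 12 genes of astroglial structure and enzymes 9 were lower and 2 higher. Aldoc, the brain aldolase, fell 45.5-fold, S100b 30.2-fold, the folate enzyme Aldh1l1 24.3-fold and glutamine synthetase, Glul, 5.83-fold. The exceptions were the progenitor genes Nes, an intermediate filament, 9.43-fold higher, and Fabp7, a lipid-binding protein of radial glia, 3.29-fold higher. Nes stood at 4.23, 1.01, 0.94 and 1.48 in qNSC, and without replicate 1, the highest, its log2 change was 4.01 (against 3.24). Vim, another filament gene, changed by 0.27 (-0.07 to 0.61) and was not called.

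Gap junction and pannexin genes went both ways, with 2 higher and 4 lower of 6 members (9 listed). Gja1, connexin 43 (ENSMUSG00000050953, chromosome 10, 56377330 to 56402513), read 11.52, 11.52, 11.43 and 11.43 in qNSC and 6.51, 7.44, 7.20 and 7.41 in aNSC, a 20.2-fold fall (log2 change -4.33 ± 0.35 SE, limma adjusted p = 4.99e-11). The other astroglial connexins Gjb6 and Gjb2 averaged 8.97 and 5.63 in qNSC and reached the floor in 1 and 3 aNSC libraries. Both were members only through qNSC, which fixed their direction. Gjc1, connexin 45, had -2.18, 1.34, 1.52 and 2.82 in qNSC and 6.09, 6.06, 6.00 and 5.82 in aNSC, and the channel gene Panx1 -2.18, 2.79, 2.91 and 2.53 and 5.87, 5.40, 5.88 and 5.65, with qNSC replicate 1 at its floor for both. Panx2 was lower at adjusted p = 0.0416, a call lost without qNSC replicate 2, 3 or 4 or aNSC replicate 1, 2 or 3.

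Lipid handling fell in 8 of 12 members and rose in 1, or in 2 without qNSC replicate 2. Clu, clusterin (ENSMUSG00000022037, chromosome 14, 65968483 to 65981547), stood at 12.72, 12.72, 12.72 and 12.72 in qNSC, identical in the 4 libraries, and at 4.13, 5.45, 5.32 and 5.64 in aNSC, 192-fold lower (log2 change -7.59 ± 0.41 SE, limma adjusted p = 3.9e-14). Apoe, the main lipid carrier of the brain, fell 6.61-fold, from 13.08 ± 0.12 to 10.36 ± 0.41 (SD, n = 4 each). The receptor Lrp1 fell 11.9-fold and the transfer protein Pltp 12.9-fold. Lpl, lipoprotein lipase, stood at -2.18, -0.33, 2.83 and -4.73 in qNSC, with 2 libraries at the floor, and at 3.43, 2.99, 3.01 and 3.24 in aNSC. Its qNSC replicate 3 lay close under the aNSC values. Lpl passed the value minimum only in aNSC, so its direction was fixed by the filter. The log2 change of Lpl was 4.27, but 5.58 without qNSC replicate 3 and 2.46 with values under 0 set to 0.

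Fatty acid breakdown fell in 23 of 30 genes and rose in 3 (median -1.43). Acsl6, which activates fatty acids (ENSMUSG00000020333, chromosome 11, 54303798 to 54364756), measured 10.26, 10.26, 10.21 and 10.31 in qNSC and 5.64, 6.28, 6.29 and 6.48 in aNSC (log2 change -4.09 ± 0.20 SE, limma adjusted p = 4.76e-15). Acsbg1 and Acsl3, of the same step, fell 7.13-fold and 5.53-fold, and the mitochondrial dehydrogenases Acadl and Acadvl 7.61-fold and 4.43-fold, while Acsl4 rose 2.42-fold. Of 19 cholesterol synthesis enzymes 10 were lower and 2 higher, with a median of -0.60. Msmo1 fell 4.01-fold and Fdps rose 1.53-fold. Cyp51 was 1.28-fold higher (adjusted p = 0.0365), and lost its call without qNSC replicate 3 or 4 or aNSC replicate 1 or 2, which leaves 1 higher enzyme. Srebf1, a regulator of lipid synthesis, fell 4.3-fold.

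Glycolytic enzymes fell in 18 of 23 and rose in 2 (median -1.56). Pfkp, a phosphofructokinase, read 8.08, 7.77, 7.79 and 7.92 in qNSC and 3.83, 4.40, 4.07 and 4.31 in aNSC (log2 change -3.74 ± 0.18 SE, limma adjusted p = 3.43e-15). Aldoa fell 6.31-fold, Eno1 5.32-fold and the pyruvate dehydrogenase kinase Pdk2 6.84-fold. Pyruvate kinase, Pkm, rose 1.64-fold and hexokinase, Hk2, 4.86-fold, from 0.97 to 3.25. In the respiratory chain 8 of 20 complex I subunits were lower, and 4 higher and 7 lower of 27 subunits of complexes II to V, whose median was -0.03. The complex I share (40% lower) stands beside 28.8% lower of all members. The ATP synthase subunits Atp5b and Atp5a1 rose 2.78-fold and 1.88-fold, and the complex I subunit Ndufb10 fell 2.4-fold. Serine, folate and nucleotide enzymes rose in 20 of 28 and fell in 4 (median 1.90). Shmt1 rose 22.5-fold, the pyrimidine enzyme Umps 9.89-fold and the purine enzyme Paics 3.1-fold, whereas the serine enzyme Psat1 fell 2.97-fold.

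The machinery of protein synthesis rose by smaller factors but nearly without exception. Of 81 cytosolic ribosomal protein genes 80 were higher (median 1.68), as were all 35 genes of ribosome biogenesis (1.64) and 33 of 36 translation factors (1.18). Rpl4 (ENSMUSG00000032399, chromosome 9, 64173375 to 64178666) stood at 7.06, 7.31, 7.17 and 7.16 in qNSC and 9.67, 9.45, 9.57 and 9.67 in aNSC (log2 change 2.41 ± 0.15 SE, limma adjusted p = 3.97e-13). Rpsa rose 4.99-fold, Rplp0 4.13-fold and Rps6 3.88-fold. Many ribosomal protein genes have processed pseudogenes, so their read assignment is uncertain. Of the biogenesis genes, Dkc1, dyskerin, read 5.38, 5.39, 5.32 and 5.25 in qNSC and 7.71, 7.83, 7.74 and 7.79 in aNSC (log2 change 2.43 ± 0.13 SE, limma adjusted p = 1.93e-14), and Fbl, fibrillarin, and Ncl, nucleolin, rose 6.16-fold and 5.51-fold. The initiation helicase Eif4a1 rose 6.35-fold, Eif5a 5.67-fold and the elongation factor Eef1a1 4.4-fold.

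All 30 splicing factors were higher (median 2.27). Hnrnpa1 (ENSMUSG00000046434, chromosome 15, 103240432 to 103246692) measured 4.75, 4.56, 4.63 and 4.84 in qNSC and 8.43, 8.40, 8.44 and 8.35 in aNSC, a 13.1-fold rise (log2 change 3.71 ± 0.14 SE, limma adjusted p = 5.63e-17). Hnrnpab rose 11.3-fold, Hnrnpu 9.77-fold and Srsf2 5.92-fold. Of 34 proteasome subunits 28 rose, with a median of 0.68, and the immunoproteasome subunit Psmb10 fell 3.17-fold. Psmd1 rose 2.34-fold. Chaperones rose in 22 of 28 and fell in 3. Hsp90ab1 rose 5.62-fold, the mitochondrial Hspd1 4.01-fold and the chaperonin subunit Cct5 3.8-fold, while the small heat shock genes Cryab and Hspb8 fell 38.7-fold and 28.6-fold.

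Lysosomal genes fell in 34 of 38 and rose in 1 (median -1.63). Ctsf, cathepsin F (ENSMUSG00000083282, chromosome 19, 4855130 to 4860918), stood at 8.63, 8.56, 8.57 and 8.64 in qNSC and 4.86, 5.43, 4.87 and 5.37 in aNSC (log2 change -3.47 ± 0.14 SE, limma adjusted p = 1.73e-16). Ctso, another cathepsin, fell 14.6-fold, the peptidase Tpp1 8.48-fold and the sphingomyelinase Smpd1 8.63-fold. Gla, alpha-galactosidase, rose 3.2-fold, with qNSC replicate 1 (0.29) far under the other qNSC libraries, and by 1.92-fold without it. CACGTG, the core of the element bound by the lysosomal regulator TFEB, was in 9 of 32 matched lysosomal promoters (28.1%), 10.1% of members' promoters and 7.24% of all promoters. Core autophagy genes were mixed, with 10 of 21 lower and 3 higher. Sqstm1 fell 2.87-fold and Gabarapl1 2.33-fold, and Becn1 rose 2.5-fold. Redox genes fell in 18 of 28 and rose in 5. The glutathione transferases Gstm1 and Mgst1 fell 11.8-fold and 10.3-fold, whereas the reductases Txnrd1 and Gsr rose 6.53-fold and 3.09-fold.

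Adhesion and matrix genes fell in 28 of 44 and rose in 7. Cadm1 (ENSMUSG00000032076, chromosome 9, 47530173 to 47857637) had 9.39, 9.33, 9.38 and 9.37 in qNSC and 6.67, 6.68, 6.58 and 6.74 in aNSC (log2 change -2.70 ± 0.09 SE, limma adjusted p = 1.41e-17). The matrix protease Htra1 fell 74.5-fold, the inhibitors Serpine2 and Timp3 31.1-fold and 28.6-fold, and thrombospondin 4, Thbs4, 20.9-fold. The integrin Itgb1 rose 2.61-fold and the ephrin Efnb1 1.78-fold, and fibronectin, Fn1, stood at -2.18, -0.50, -0.14 and -0.44 in qNSC and 3.98, 4.22, 3.48 and 4.14 in aNSC. Primary cilium genes were even, with 7 higher and 7 lower of 30 (23.3% each), under the 37.2% and 28.8% of all members. Bbs2 and Bbs4 fell 2.5-fold and 2.16-fold, and Ift88 and the motor gene Kif3b rose 2.25-fold and 2.47-fold.

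Chromatin genes rose in 25 of 33 and fell in 5. Uhrf1 and Dnmt1, which copy DNA methylation after replication, rose 38.2-fold and 15.5-fold, and the de novo enzyme Dnmt3b 3.42-fold. The histone chaperone Nasp rose 11.4-fold and the chromatin proteins Hmgb2 and Hmgn2 14.6-fold and 14.8-fold. Lower were the Polycomb genes Cbx7 (8.25-fold) and Ezh1 (1.64-fold), the demethylating enzyme Tet2 (1.8-fold) and Dnmt3a (1.53-fold, adjusted p = 0.0231, and 0.0676 without qNSC replicate 1).

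Immediate early genes, which growth factors, activity and stress induce within minutes, rose in 17 of 24 and fell in 2 (median 1.67). Egr1 (ENSMUSG00000038418, chromosome 18, 34859823 to 34864984) measured 7.11, 8.49, 7.17 and 7.57 in qNSC and 13.26, 13.26, 12.30 and 12.72 in aNSC. The libraries varied within both groups without overlapping, and the rise was 39.4-fold (log2 change 5.30 ± 0.33 SE, limma adjusted p = 4.18e-13). Ier2 rose 25.5-fold (39.7-fold without qNSC replicate 2) and Btg2 6.05-fold, while Cyr61, a matricellular target of YAP, fell 4.53-fold. Interferon and antigen presentation genes fell in 11 of 23 and rose in 3. The class I gene H2-K1 fell 8.64-fold and Tapbp 4.45-fold, and Irf1 and Ifit2 rose 2.39-fold and 2.66-fold. TNF and NF-kB genes were even, with 4 higher and 4 lower of 20 (20% each), under the 37.2% and 28.8% of all members. The receptor Tnfrsf1a fell 3.88-fold, Tnfaip8 fell 7.82-fold, and the adaptor Tradd rose 2.8-fold.

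**Figure D3:**
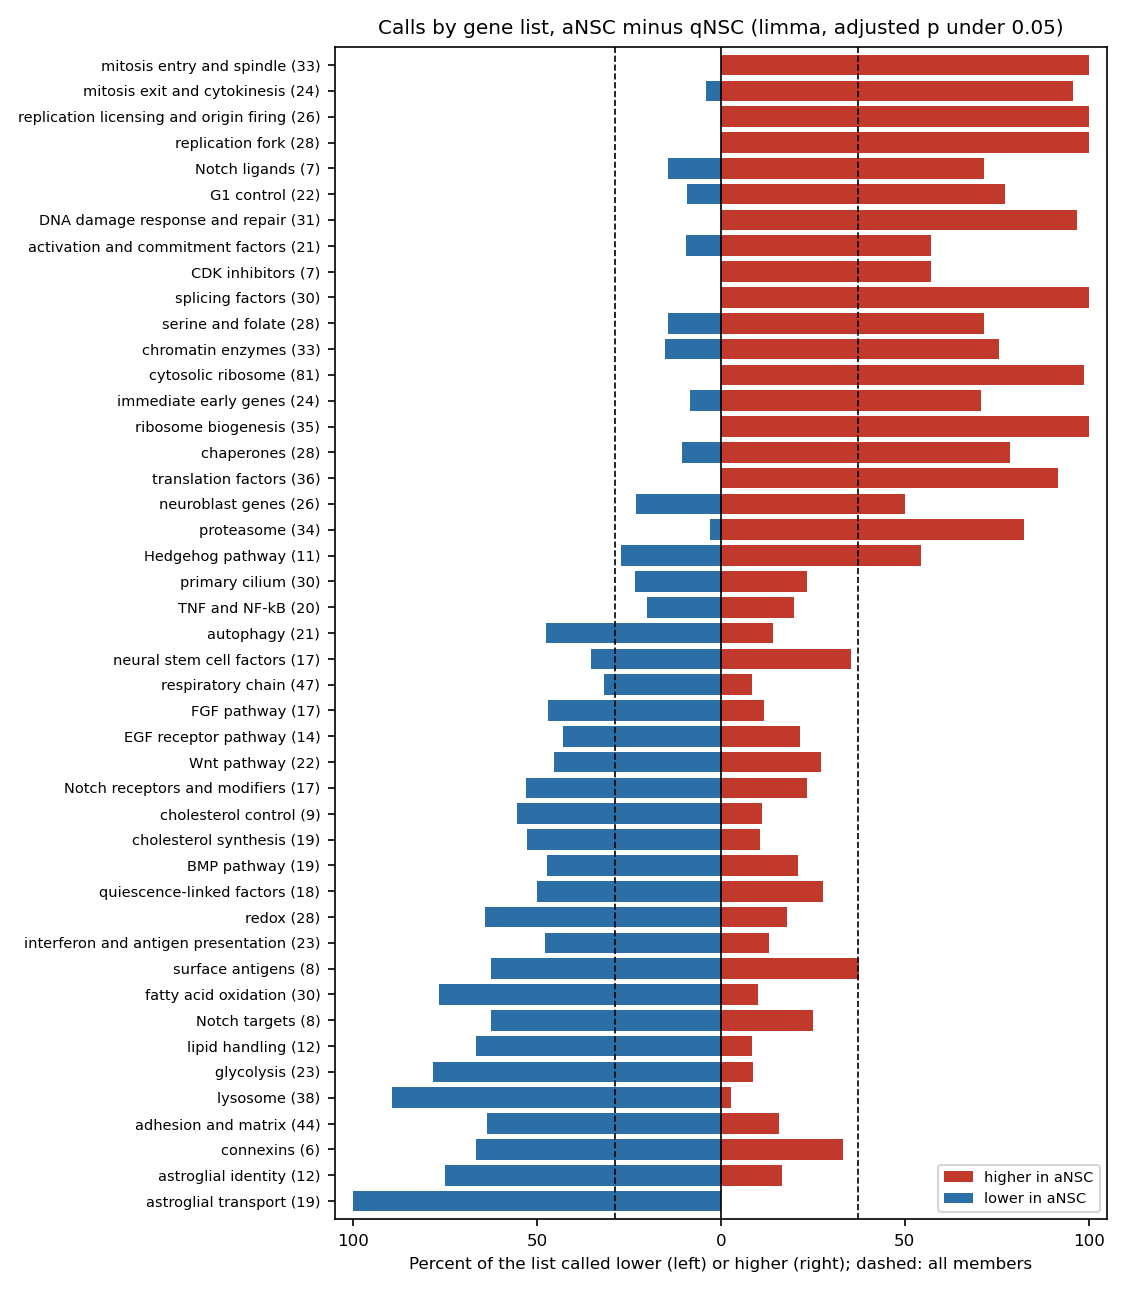
For each gene list (number of members in brackets) the bars give the percent of members called lower (left, blue) and higher (right, red) in aNSC, ordered by median change, and the dashed lines mark the shares over all members (28.8% and 37.2%). Replication, mitosis, splicing and ribosome lists reach 95.8% to 100% on the right, and astroglial transport reaches 100% on the left.

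The most abundant transcripts changed as well. Creatine kinase, Ckb, stood at 11.58, 11.58, 11.52 and 11.52 in qNSC and 13.02, 13.02, 13.26 and 13.26 in aNSC, a 3.02-fold rise. Tmsb4x, thymosin beta 4, rose 19.4-fold and actin, Actb, 4.98-fold. Cystatin C, Cst3, fell 8.25-fold, from 13.26, 13.02, 13.26 and 13.26 to 9.81, 10.08, 10.26 and 10.47, and the carboxypeptidase Cpe 2.46-fold. Against these, 1185 members had a 95% interval within 1.5-fold either way, 59 of them called. Mfge8, a secreted bridging protein, read 11.67, 11.77, 11.58 and 11.58 in qNSC and 11.26, 11.52, 11.87 and 11.87 in aNSC, with overlap and a change of -0.02 (-0.57 to 0.54). Changes of 0.12 for the membrane protein Gpm6b (-0.15 to 0.38) and -0.07 for Dbi, acyl-CoA-binding protein (-0.53 to 0.38), were as narrow. Another 4453 members were not called with a wider interval, and their intervals include changes over 1.5-fold.

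The members were also measured in cultured neurosphere cells, which share no library with the sorted cells. Those cells were loaded with the dye DFFDA, grown with EGF and FGF and sorted into groups labelled DFFDA_H and DFFDA_L, 4 libraries each, and such dyes are diluted as cells divide. Of the 14149 members tested there, limma called 22.8% higher and 21.8% lower in DFFDA_L minus DFFDA_H. Of 5567 members higher in aNSC, 2323 (41.7%) were higher in DFFDA_L and 316 (5.68%) lower. Of 3929 members lower in aNSC, 1868 (47.5%) were lower in DFFDA_L and 271 (6.90%) higher. The difference between the contrasts was not tested. Mitotic entry genes were higher in DFFDA_L in 33 of 33, with a smaller median (1.61), replication fork genes in 27 of 28 (1.04) and splicing factors in 26 of 30 (0.73). Lysosomal genes were lower in 29 of 36 (-0.82) and astroglial transport genes in 11 of 17 (-0.73).

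Other lists stood as follows in culture, beside the 22.8% and 21.8% of all members. Cholesterol enzymes were higher in DFFDA_L in 13 of 19 and lower in 1. Ribosomal protein genes were higher in 19 of 81, a share near that of all members, with a median of 0.10. Immediate early genes were higher in 3 of 21 and lower in 6. Egfr changed by 0.19 (limma adjusted p = 0.208) and Egr1 by 0.08 (0.665), neither of which passed. Mki67 changed by 2.41 (5.76e-07) and Clu by -3.54 (2.59e-07), in the same directions as in sorted cells. Cdkn1a changed by -0.50 (0.00558), the opposite of its change between aNSC and qNSC.

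**Figure D4:**
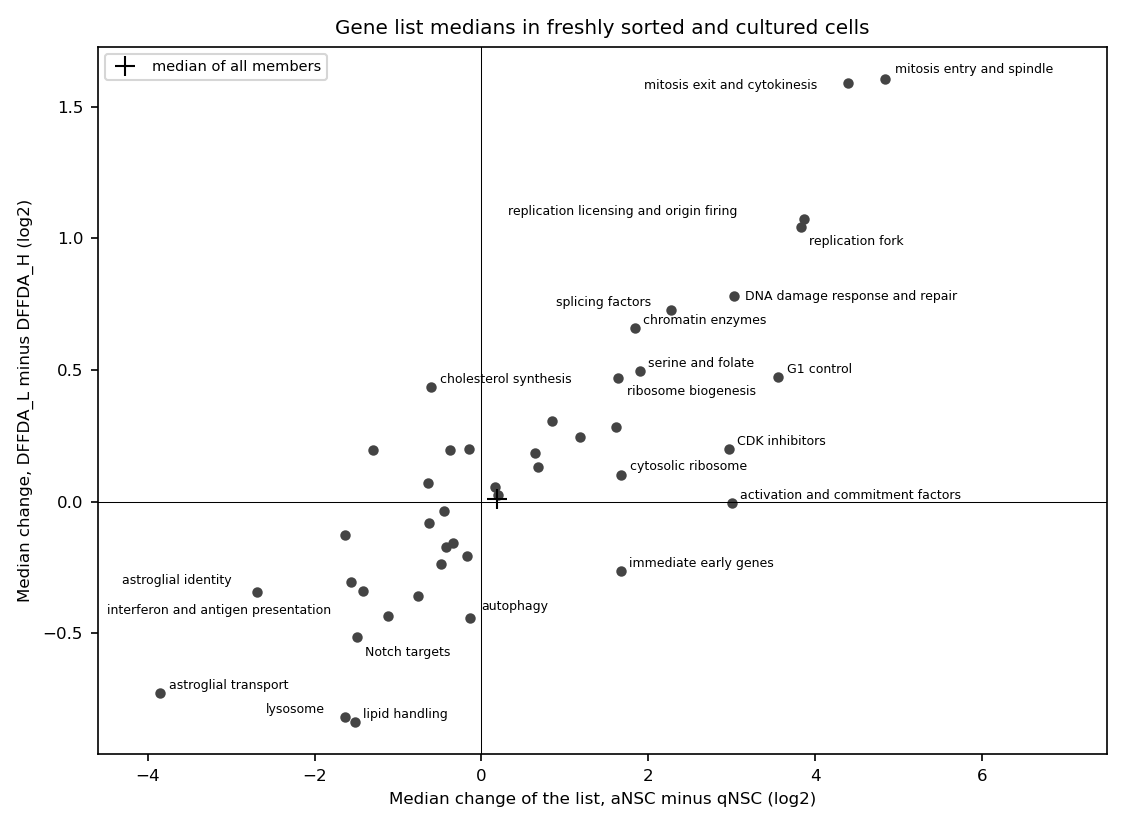
Each point is a gene list, with its median log2 change in sorted cells over members (horizontal) and in cultured cells over members tested there (vertical), and the cross marks the median of all members. Mitosis and replication lists lie at the upper right, lysosome and astroglial transport at the lower left, and cholesterol synthesis and immediate early genes in the other corners.

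Markers of other cell types were present in both groups, and their lists did not all differ alike. Their counts stand beside 37.2% higher and 28.8% lower of all members. Summed over 8 mural cell genes found (12 listed), linear levels were 137 to 180 in qNSC and 6.44 to 13.1 in aNSC, with 4 of 5 members lower, and Pdgfrb fell from 7.15, 7.30, 6.84 and 7.18 to -1.80, 1.79, 1.47 and 2.01. Most of the mural sum in qNSC came from Pdgfrb, so the sum follows that gene more than the list. Ependymal markers summed to 205 to 267 in qNSC and 50.6 to 71.2 in aNSC, with 9 of 15 members lower and 1 higher, and Rarres2 11.7-fold lower. Rarres2 was the only ependymal member averaging 4 or more, so this sum may follow that gene more than the list. Oligodendrocyte markers summed to 448 to 769 and 235 to 284, with 3 of 9 lower and 1 higher, a call lost without qNSC replicate 4, and Cnp was 2.01-fold lower. Cnp made up most of the oligodendrocyte sum in aNSC. Microglial markers summed to 354 to 931 and 301 to 473, with 2 of 19 lower and 1 higher, or 4 lower without qNSC replicate 1. The purinergic receptor gene P2ry12 fell 3.4-fold, whereas Cx3cr1 read 6.65, 7.22, 6.84 and 7.37 in qNSC and 7.31, 7.41, 7.56 and 7.54 in aNSC (adjusted p = 0.0108, and 0.0627 without qNSC replicate 1). A large part of the microglial sum in aNSC came from Cx3cr1.

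Mature neuron markers summed to 72.8 to 243 in qNSC and 68 to 98.5 in aNSC, with 7 of 12 lower, or 4 without qNSC replicate 2 and 3 without aNSC replicate 4, and Rbfox3 6.6-fold higher. Sums of endothelial markers were 10.3 to 20.2 and 10.8 to 18.2, with 1 of 3 members higher, and a further 1 lower without aNSC replicate 2. Oligodendrocyte precursor markers gave 33.2 to 90.3 and 57.6 to 101, with 1 of 7 higher, a call lost without qNSC replicate 4. Red cell markers gave 6.87 to 32.5 and 0.805 to 23.5, with none of 3 members called by limma or at an unadjusted p under 0.05. The part of mural, ependymal and other cells in the lower astroglial, lysosomal and matrix genes of aNSC was not tested.

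**Figure D5:**
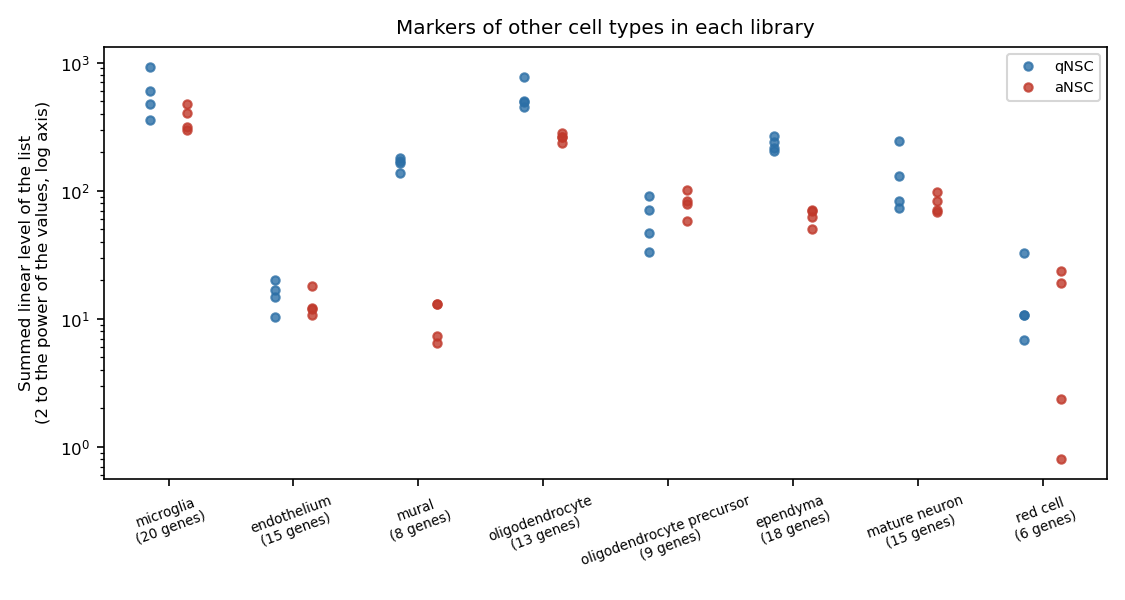
Points give the summed linear level of each marker list in every library (log axis), qNSC in blue and aNSC in red. The mural, ependymal and oligodendrocyte sums separate by group, the endothelial and microglial sums overlap. The most abundant gene of a list can carry its sum, as Pdgfrb does for the mural sum in qNSC.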

How the data were processed

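RNA was measured in 36 libraries, of which the 4 qNSC and 4 aNSC libraries are compared here and 8 neurosphere libraries are set beside them. The SMARTer Ultra Low kit amplified poly(A)-selected RNA, per the labels' protocols, and does not mark strand, so a gene and its antisense partner cannot be told apart. Tools named in the submitters' processing notes are HISAT2, featureCounts, FastQC, Trimmomatic, cutadapt and limma, with GRCm38 and mm10 as builds. How they filtered and normalized is not stated there. The deposited table holds log2 values on a scale like log2 CPM, and its columns have nearly equal distributions, as quantile normalization would leave. A level therefore follows a gene's rank in its library, genes of equal rank share a value, total RNA per cell is not measured, and the number of reads is unknown. Fold changes are 2 to the power of the log2 difference, and where a library is at its floor they depend on that floor.

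After 1770 blank lines were dropped, genes were followed by Ensembl identifier, of which 19863 matched GENCODE M21 (GRCm38). A symbol carried by several identifiers was followed through the one with the highest mean. Limma 3.58.1 (R 4.3.3, trended and robust empirical Bayes) fitted a mean for each of 8 sorted populations to 28 libraries, over 17788 genes that reached 0 in 3 or more libraries of 1 population. P-values were adjusted by Benjamini-Hochberg over those genes, and a call is an adjusted p under 0.05. The neurosphere libraries had their own fit. The scripts were tested on simulated data. Alternatives tried were fewer fitted libraries, library weights, other centring, floors, filters and variance settings, a replicate block and leaving out each library. Centring on abundant genes and leaving out qNSC and pNSC replicate 1 together were added after the data were seen.

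The members and the gene lists were chosen with earlier results of these data known. Genes were named by rule: Slc1a3, Prom1, Egfr, Cd24a, Cd9, Gfap, Mki67, Cdkn1a, Cdkn1b and Cdkn1c, then the 10 largest changes each way with no library at its floor and no overlap, then from each list up to 4 members with the smallest adjusted p in the main direction and 2 in the other (any member of lists of up to 12), then the 8 most abundant members with an interval within 1.5-fold and the 6 most abundant called each way. Cdk1 and Ncapg, named for their promoters after their values were seen, lie outside it. Some genes that the rule names are not reported here.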

Additional observations from a re-analysis of the deposited data

Results flagged for a closer look

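Of 498 groups of 4 libraries (249 genes named in the report, qNSC and aNSC each), 50 had 1 library far from the other 3, its gap to the nearest taking up most of the group's range (Dixon's 95% critical value). Chance flags about 1 in 20 groups of normally distributed values. Values here can tie, as among the other libraries in the flags of Actb, Ccnd2 and Cst3, so that rate may not hold. The library was qNSC replicate 1 in 21 cases, and in all 26 were in qNSC and 24 in aNSC. Levels below are log2 values of that library.

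aNSC replicate 1 lay above the other 3 aNSC libraries for Cdkn1a at 6.42, Dll3 at 7.87, E2f2 at 6.19 and Hnrnpab at 10.93. aNSC replicate 1 lay below the other 3 aNSC libraries for Acsbg1 at 7.12, Apoe at 9.75, Bbs2 at 4.12, Cnp at 7.56, Foxo1 at 5.55, Hey2 at 2.02, Id3 at 3.62, Ncapg at 6.71, Pdgfrb at -1.80, Pkm at 9.77 and Slc4a4 at 2.37. aNSC replicate 2 lay above the other 3 aNSC libraries for Ctso at 5.52. aNSC replicate 2 lay below the other 3 aNSC libraries for Atp5b at 11.18. aNSC replicate 3 lay above the other 3 aNSC libraries for Ccnd2 at 12.55, Hnrnpu at 11.99 and Tmsb4x at 12.72. aNSC replicate 3 lay below the other 3 aNSC libraries for Actb at 12.12 and Panx2 at 0.94. aNSC replicate 4 lay above the other 3 aNSC libraries for Gjb2 at -2.99. aNSC replicate 4 lay below the other 3 aNSC libraries for Rrm1 at 9.77. qNSC replicate 1 lay above the other 3 qNSC libraries for Acadl at 8.32, Aldoa at 10.18, Cdkn2d at 5.25, Dlx2 at 5.98, Nes at 4.23, Ppp1r1b at 8.41, Smpd1 at 8.58 and Tnfaip8 at 6.27. qNSC replicate 1 lay below the other 3 qNSC libraries for Becn1 at 4.48, Bmpr1b at 7.43, Cdk2 at 1.81, Gla at 0.29, Gli1 at 0.29, Jag1 at 0.47, Mfng at -2.18, Panx1 at -2.18, Pbk at -0.0086, Slc39a12 at 9.05, Slc7a10 at 9.26, Top2a at 2.02 and Tpp1 at 8.44. qNSC replicate 2 lay above the other 3 qNSC libraries for Acsl4 at 3.53, Apoe at 13.26 and Btg2 at 7.17. qNSC replicate 2 lay below the other 3 qNSC libraries for Cst3 at 13.02 and Kif20a at 4.86.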

How the results depend on the processing

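Over 19 alternatives, no gene of the report that was called in either fit changed sign, and 13 of its 249 genes had a call that differed in at least 1: 10 lost a call and 3, Cdkn1b, Cdkn2b and Hes1, gained one. With the test restricted to members averaging 4 or more, 6614 were changed, 3670 higher and 2944 lower, and 3957 changed over 2-fold. Fewer members (8972) were tested there. Leaving out each library in turn gave 10175 to 10736 changed members, 5727 to 6065 higher, 4448 to 4671 lower and 7553 to 7845 changed over 2-fold, and in the neurospheres 5706 to 6971 changed genes against 6995.

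Replicate numbers were not taken to pair the samples: the deviations of same-numbered qNSC and aNSC libraries correlated at 0.0750, 0.0813, 0.0225 and 0.104 across genes, not all over 0.1. Replicates 1, 2 and 4 correlated best with their own number, and replicate 3 did not. With a replicate block, 10888 members were changed, 6130 higher and 4758 lower, and 10758 of these calls were shared with the fit without it. With the 8 libraries alone and the block, Cdon (adjusted p = 0.0566) and Panx2 (0.0922) were not called. Values under 0 set to 0 moved the change of 19 called genes of the report by over 1.5 times, library weights that of 12 and leaving out qNSC replicate 1 that of 12. The number of reads is unknown, so how far depth limits low genes cannot be stated.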
